A study of Mus musculus with 28 samples.

Results

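The adult globin genes and Alas2 were followed through 28 libraries of sorted mouse cells. The members were 5 genes chosen by symbol, of 47643 genes in the count tables: the alpha globins Hba-a1 (ENSMUSG00000069919) and Hba-a2 (ENSMUSG00000069917), the beta globins Hbb-bs (ENSMUSG00000052305) and Hbb-bt (ENSMUSG00000073940), and Alas2 (ENSMUSG00000025270). All 5 were found in the tables. The cells came from thyroid glands of H2B-GFP mice, which carry a histone fused to green fluorescent protein, and were sorted without culture by their fluorescence. A histone label of this kind is diluted by division and is kept longer by cells that seldom divide. The groups were GFP+ and GFP− thyroid cells at 3 months (4 libraries per fraction), at 6 months (4 per fraction) and at 9 months (3 per fraction), and GFP+ and GFP− salivary gland cells at 9 months (3 per fraction). All groups shared the H2B-GFP allele. The promoter that drives it, the length of any chase, and whether a library stands for 1 animal are not given in the sources used here, so the tests below measure the spread between libraries, which may be technical.

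Red cells carry oxygen on haemoglobin, a tetramer of alpha and beta globin chains that each hold a heme group. Alas2 encodes the aminolevulinate synthase of red cell precursors, which makes the first intermediate of heme, whereas most other tissues use the product of Alas1. Young red cells (reticulocytes) have lost their nucleus and still contain globin mRNA, so globin transcripts are a common trace of blood in RNA from vascular organs such as the thyroid. In bulk RNA of a sorted fraction, fewer cells of a type and less RNA per cell cannot be told apart.

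The 2 alpha copies and the 2 beta copies are near duplicates. Over their coding sequences (426 bases, GENCODE vM21 transcripts), Hba-a1 and Hba-a2 differed at 1 base, C381T, counted from the first base of the start codon with the Hba-a1 base first. Over 441 coding bases, Hbb-bs and Hbb-bt also differed at 1 base, C417T, with the Hbb-bs base first. The stretches around these bases show how little a read from the coding end can tell the copies apart, with the differing base in capitals and coding positions 361 to 401 (Hba) and 397 to 437 (Hbb).
Hba-a1: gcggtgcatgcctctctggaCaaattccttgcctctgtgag
Hba-a2: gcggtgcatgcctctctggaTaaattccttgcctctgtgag
Hbb-bs: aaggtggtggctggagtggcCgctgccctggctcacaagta
Hbb-bt: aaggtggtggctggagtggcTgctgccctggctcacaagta
The libraries read the 3′ ends of transcripts. Of the 50-base windows in the last 300 bases, 80.1% of those of Hba-a1 also occurred in Hba-a2, and 73.7% the other way round. For Hbb-bs and Hbb-bt the shared windows were 36.7% and 36.3%, and Alas2 shared 0 windows with the globins. The copies were therefore summed into an alpha and a beta value before any test, and values of single copies are uncertain.

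The promoters of members that moved together are shown for 1 gene of each kind, as the 150 bases before the transcription start on the gene's strand (RefSeq, GRCm38.p6). Capitals mark 4 short motifs searched on both strands: CACCC and CCAAT, which are named boxes of globin promoters, ATATAA, a form of the TATA box, and GATAA, the core that GATA factors recognise. Hbb-bs lies at chr7:103827929-103828078 on the minus strand, Hba-a2 at chr11:32296342-32296491 on the plus strand and Alas2 at chrX:150547267-150547416 on the plus strand.
Hbb-bs: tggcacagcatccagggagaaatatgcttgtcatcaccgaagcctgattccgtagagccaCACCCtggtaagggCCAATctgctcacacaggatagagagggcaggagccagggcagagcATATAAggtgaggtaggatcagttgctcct
Hba-a2: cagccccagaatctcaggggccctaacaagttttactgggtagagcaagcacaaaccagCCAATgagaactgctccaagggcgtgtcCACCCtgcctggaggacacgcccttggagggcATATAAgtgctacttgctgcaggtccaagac
Alas2: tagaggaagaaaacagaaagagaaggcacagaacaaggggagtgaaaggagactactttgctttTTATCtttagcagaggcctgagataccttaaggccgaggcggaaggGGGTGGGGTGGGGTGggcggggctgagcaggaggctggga
Both globin windows hold 1 CACCC, 1 CCAAT and 1 ATATAA, and the ATATAA starts 30 bases (Hbb-bs) and 31 bases (Hba-a2) before the start. The Alas2 window holds no CCAAT or ATATAA. It has 1 GATAA and 3 CACCC, all on the opposite strand, so that they appear as TTATC and GGGTG in the printed strand. Among 32851 mouse promoter windows of this length, 37.4% hold a CACCC, 24.5% a CCAAT, 5.35% an ATATAA and 13.3% a GATAA, so CACCC and CCAAT are common at this length. A match describes letters only and is not a binding site. The Hba-a1 and Hba-a2 windows were identical over 147 aligned bases, whereas those of Hbb-bs and Hbb-bt matched at 71.1% of 149 bases.

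The libraries were shallow and uneven, with 507 to 209091 reads in genes each and 2263832 in all. Values are in CPM, the reads of a gene per 1000000 reads in genes. A gene with 0 reads could still have stood at 14.3 to 5917 CPM, depending on the library, as the limit taken from 3 reads. Of the libraries, 6 held under 10000 reads. In the GFP+ thyroid group at 3 months, replicate 4 held 174957 reads, while replicates 1 to 3 held 1562, 5896 and 18639, and at 6 months GFP+ replicate 4 held 507. In the GFP− thyroid group at 6 months, replicate 3 was the deepest of all libraries (209091 reads) and held 53.6% of all globin reads of GFP− thyroid cells. Results that rest on these libraries are given with and without them. Ribosomal RNA rows took 25.1 to 63.8% of the reads in genes.

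Globin transcripts were found in all 11 GFP− thyroid libraries and were several-fold scarcer in GFP+ thyroid cells. The 4 globin genes together had 898 reads in GFP+ thyroid libraries and 5569 in GFP− thyroid libraries, which is 0.102% (95% Clopper-Pearson interval 0.0955 to 0.109) and 0.562% (0.548 to 0.577) of the reads in genes. Per pooled read, GFP− cells had 5.51 times as many globin reads (exact interval 5.13 to 5.92, counting error only). That ratio leaned on GFP− replicate 3 at 6 months. Without this library, pooled globin in GFP− cells was 3307 CPM instead of 5621 CPM, against 1021 CPM in GFP+ cells. Averaged over the 3 ages, both alpha globin (log2 fold change −2.85, SE 0.453, adjusted p = 2.54e-08) and beta globin (−2.88, SE 0.511, adjusted p = 7.66e-07) fell in the GFP+ fraction, by the quasi-likelihood test of edgeR, adjusted by Benjamini-Hochberg over 1898 genes. In this comparison 8.69% of all genes tested were called lower, 11.4% higher and 20.1% in either direction, and the median of all genes was −0.08. With DESeq2 size factors that median moved to 0.22 and the calls to 16.1% higher and 6.59% lower. Alpha globin moved less, to −2.72, while beta globin moved about as far as the median, to −2.59.

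**Figure D1:**
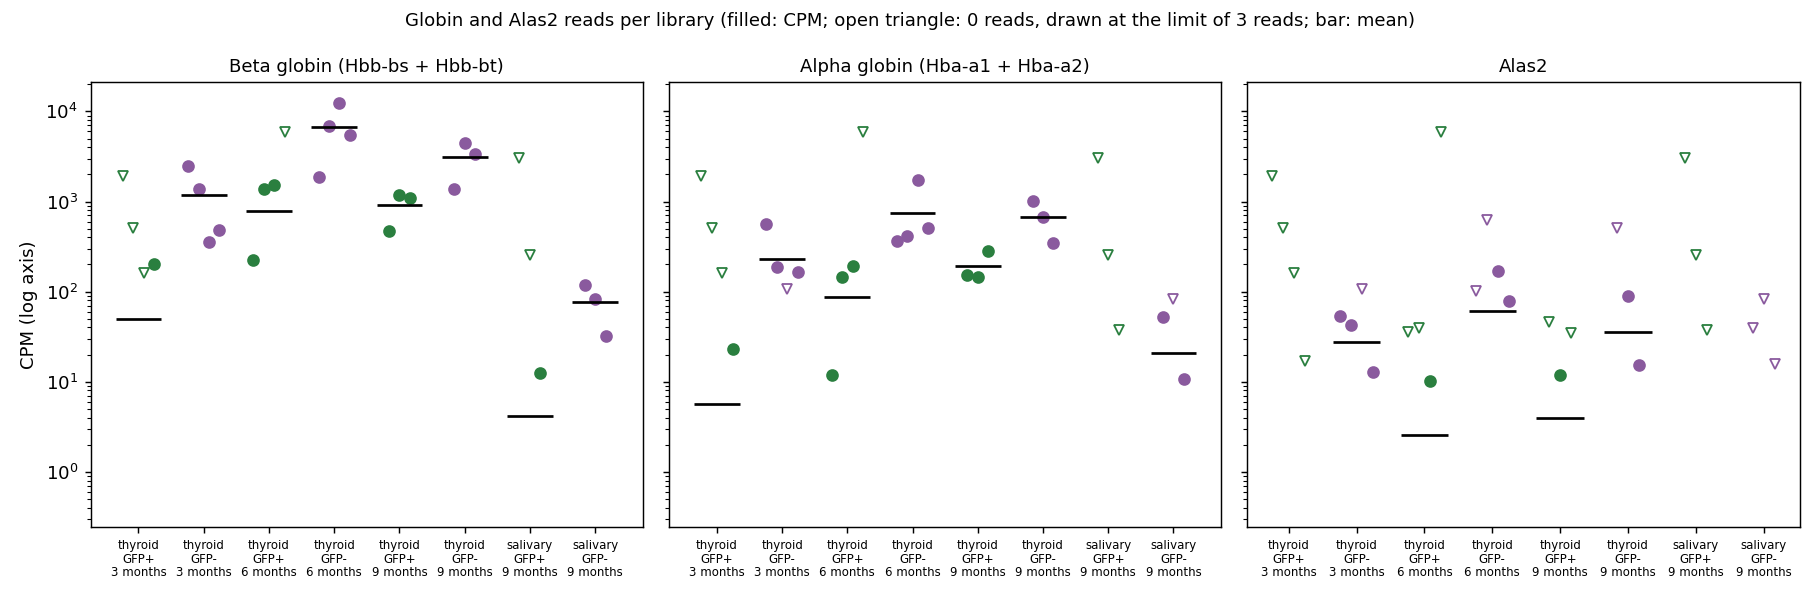
Beta globin, alpha globin and Alas2 in every library, as CPM on a log axis, for GFP+ (green) and GFP− (purple) cells of each gland and age. Filled points are CPM, open triangles are libraries with 0 reads drawn at the limit of 3 reads, and bars are group means, absent where the mean is 0. At 9 months the 3 GFP+ thyroid libraries (476 to 1181 CPM of beta globin) all sit below the 3 GFP− libraries (1360 to 4517 CPM). Salivary libraries with beta globin reads (12.6 to 118 CPM) lie below both, while the open triangle of salivary GFP+ replicate 1 sits at its limit of 3021 CPM.

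Beta globin, the sum of Hbb-bs and Hbb-bt, had the most reads of the members. Each 3′ read stands for a transcript end, so CPM needs no correction for length. At 3 months it had 0, 0, 0 and 200 CPM in the GFP+ thyroid libraries, against 2487, 1364, 358 and 487 CPM in the GFP− libraries. The groups did not overlap, but the 0 counts of GFP+ replicates 1 and 2 allow up to 1921 and 509 CPM, which reaches into the GFP− range. At 6 months it had 223, 1389, 1534 and 0 CPM in GFP+ libraries, against 1877, 6811, 12545 and 5510 CPM in GFP− libraries. Here too the groups did not overlap, but the 0 came from the library of 507 reads. It allows up to 5917 CPM, which reaches into the GFP− range. At 9 months it had 476, 1181 and 1081 CPM in GFP+ libraries, against 1360, 4517 and 3402 CPM in GFP− libraries, again with no overlap. The share of all genes whose groups do not overlap was not counted, so these separations are descriptions. Group means were 50 ± 100 CPM in GFP+ and 1174 ± 983 CPM in GFP− cells at 3 months (SD, n = 4 each), 787 ± 787 CPM in GFP+ and 6686 ± 4429 CPM in GFP− cells at 6 months (n = 4 each), and 913 ± 381 CPM in GFP+ and 3093 ± 1601 CPM in GFP− cells at 9 months (n = 3 each). Within GFP− cells the SD was close to the mean at 3 months, where replicates 1 and 2 stood above replicates 3 and 4.

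Alpha globin, the sum of Hba-a1 and Hba-a2, ran beside it at lower counts. At 3 months it had 0, 0, 0 and 22.9 CPM in GFP+ libraries, against 558, 190, 0 and 167 CPM in GFP− libraries. The fractions overlapped at 0, since GFP− replicate 3 (27964 reads in genes) held 10 beta globin reads and no alpha globin read. At 6 months it had 11.8, 144, 194 and 0 CPM in GFP+ libraries, against 369, 413, 1727 and 502 CPM in GFP− libraries. At 9 months it had 154, 147 and 279 CPM in GFP+ libraries, against 1020, 671 and 346 CPM in GFP− libraries. The measured values of the fractions were apart at both of these ages, by a small margin at 9 months. However, the 0 of GFP+ replicate 4 at 6 months allows up to 5917 CPM, above every GFP− value there. Means were 5.72 ± 11.4 CPM in GFP+ and 228 ± 235 CPM in GFP− cells at 3 months (SD, n = 4 each), 87.6 ± 96.6 CPM in GFP+ and 753 ± 652 CPM in GFP− cells at 6 months (n = 4 each), and 193 ± 74.5 CPM in GFP+ and 679 ± 337 CPM in GFP− cells at 9 months (n = 3 each).

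Taken age by age, the fall in GFP+ cells passed the test at 3 and 6 months and not at 9. At 3 months alpha globin had a log2 fold change of −4.02 (SE 0.982, adjusted p = 0.00205 by edgeR) and beta globin −3.80 (SE 0.945, adjusted p = 0.00226), where 4.64% of all genes were called lower, 4.95% higher and 9.59% in either direction. The median of all genes was −0.26, and 0.42 with DESeq2 size factors, which turned the calls to 200 higher and 49 lower, against 94 and 88 with TMM factors. Without GFP+ replicate 4, the remaining GFP+ libraries held 0 globin reads in 26097, so beta globin was at least 12.1-fold lower and alpha globin at least 2.30-fold lower (3 reads over the group). At 6 months alpha globin had −2.98 (SE 0.646, adjusted p = 0.000407 by edgeR) and beta globin −3.03 (SE 0.805, adjusted p = 0.0057), where 1.74% of all genes were called lower, 5.27% higher and 7.01% in either direction. Both 6-month calls were lost without GFP− replicate 3, with −1.88 (adjusted p = 0.0905 by edgeR) for alpha and −2.21 (adjusted p = 0.0912) for beta, and the beta call also without GFP+ replicate 1 (−2.69, adjusted p = 0.053). At 9 months alpha globin had −1.55 (SE 0.692, adjusted p = 0.413 by edgeR) and beta globin −1.82 (SE 0.886, adjusted p = 0.507), where 1.69% of all genes were called lower, 0.263% higher and 1.95% in either direction. The 3- and 6-month calls were also lost with no filter on low counts and without the libraries under 10000 reads, and the 3-month calls with DESeq2 size factors, while the values stayed between −4.06 and −2.81. With the replicate number as a block, the 3- and 6-month calls were lost as well. Whether the difference between fractions changed with age was tested directly as an interaction, which gave adjusted p = 1 for alpha (unadjusted p = 0.0953) and adjusted p = 1 for beta (unadjusted p = 0.275) by edgeR, with 0.158% of genes called. The fold between fractions was thus not shown to differ between ages.

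**Figure D2:**
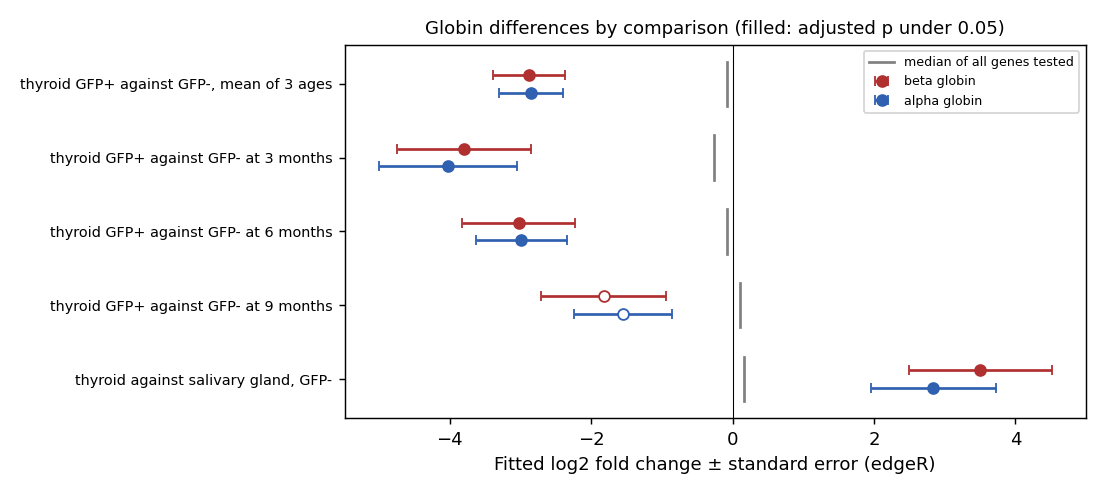
Fitted log2 fold changes of beta (red) and alpha (blue) globin, with standard errors as bars, for GFP+ against GFP− thyroid cells and for thyroid against salivary GFP− cells. Filled points passed an adjusted p of 0.05 and grey ticks are the median of all genes tested. The GFP+ values run between −4.02 and −1.55, all below the medians, and the 9-month values are open.

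Within a fraction, globin levels were not shown to change with age. In GFP+ cells an F test over the 3 ages gave adjusted p = 0.161 for alpha and 0.0796 for beta globin (edgeR, 1.53% of genes called), with fitted beta globin values of 3.21 at 6 months and 3.17 at 9 months above 3 months on the log2 scale. For beta globin this came past the threshold without 1 of 2 libraries, GFP+ replicate 4 at 3 months (adjusted p = 0.0327) or GFP+ replicate 4 at 6 months (adjusted p = 0.00402), and it stood at adjusted p = 0.97 without the libraries under 10000 reads. In GFP− cells the F test gave adjusted p = 0.188 for alpha and 0.154 for beta globin (edgeR, 1.53% of genes called). There, beta globin passed when GFP+ replicate 4 at 6 months was left out (adjusted p = 0.0292), a library outside the fraction that enters the shared scaling and spread. Pooled over the libraries of a group, all globins in GFP− cells stood at 1651 CPM at 3 months, 10520 CPM at 6 months and 4429 CPM at 9 months. Replicate 3 held most of the 6-month reads, and at 6 months the mean of beta globin was 4733 ± 2557 CPM without that library (SD, n = 3).

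Alas2 was the scarcest member and showed the same order. It had 4 reads in 2 of 11 GFP+ thyroid libraries and 71 reads in 7 of 11 GFP− thyroid libraries. At 3 months it had 0 CPM in all 4 GFP+ libraries, against 53.6, 42.8, 0 and 12.8 CPM in GFP− libraries. At 6 months it had 0, 0, 10.2 and 0 CPM in GFP+ libraries, against 0, 0, 167 and 78.0 CPM in GFP− libraries. At 9 months it had 0, 11.7 and 0 CPM in GFP+ libraries, against 0, 90.5 and 15.4 CPM in GFP− libraries. Every age had libraries of both fractions at 0, so the fractions overlapped throughout. Pooled over ages, Alas2 amounted to 4.55 CPM in GFP+ cells, against 71.7 CPM in GFP− cells, a ratio of 15.8 (exact interval 5.89 to 59.4, counting error only). GFP− replicate 3 at 6 months held 35 of the 71 GFP− reads, and without it the GFP− value was 46.1 CPM. Alas2 did not pass the filter on low counts. In a fit with no filter (16523 genes), its mean log2 fold change over the ages was −3.74 (SE 0.770, adjusted p = 0.000399 by edgeR), where 1.07% of genes were called lower. That call held when each of the 22 libraries was left out in turn, with values of −4.45 to −3.15 and a highest adjusted p of 0.0371, reached without GFP− replicate 2 at 9 months. At single ages it passed at none, with adjusted p = 0.307 at 3 months, 0.117 at 6 months and 0.758 at 9 months by edgeR.

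The share of alpha globin in globin reads was not shown to differ between the fractions. Alpha globin made up 12.6% of globin reads in pooled GFP+ thyroid cells (113 of 898, 95% Clopper-Pearson interval 10.5 to 14.9) and 12% in pooled GFP− thyroid cells (668 of 5569, 11.2 to 12.9). Over single libraries with at least 20 globin reads, the alpha share averaged 13.1% ± 6.80 in GFP+ (SD, n = 7) and 13.4% ± 5.97 in GFP− cells (SD, n = 9). The difference of −0.293 percentage points was smaller than the spread between libraries (two-sided exact permutation test, p = 0.935). Shares ran from 5 to 24.4% in GFP+ and from 5.71 to 25.5% in GFP− libraries, with the extremes in libraries of few globin reads. Haemoglobin holds as many alpha as beta chains, and a share of reads is not a share of chains. The alpha copies share more of their last 300 bases than the beta copies, and the tables hold 0 reads in the row for reads that map to several places. How such reads were treated is not given in the sources used here, and their part in the alpha share was not tested.

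**Figure D3:**
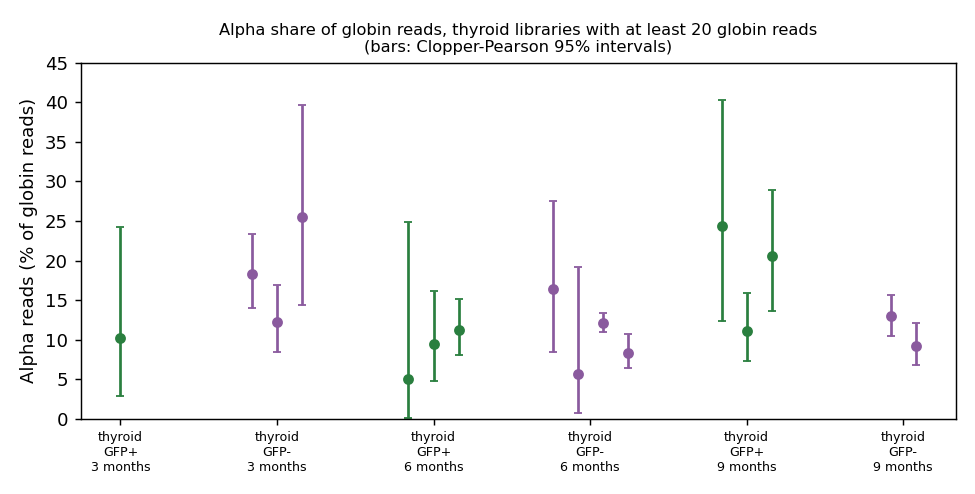
Alpha globin as a percent of globin reads in each thyroid library with at least 20 globin reads, by group, with GFP+ in green and GFP− in purple and 95% Clopper-Pearson intervals as bars. The shares lie between 5 and 25.5% in both fractions, and the narrowest interval, that of GFP− replicate 3 at 6 months, is 10.9 to 13.3%.

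Between copies, Hbb-bs made up 65.1% of beta globin reads in GFP+ thyroid cells (61.6 to 68.4) and 66.3% in GFP− thyroid cells (65.0 to 67.6). Hba-a1 made up 53.1% (43.5 to 62.5) of alpha globin reads in GFP+ and 51.8% (47.9 to 55.6) in GFP− thyroid cells. Counted separately, each of the 4 copies fell in GFP+ cells over the mean of the ages, from −2.62 for Hba-a1 to −3.64 for Hba-a2 on the log2 scale (adjusted p = 3.17e-07 and 2.38e-08 by edgeR). Hba-a2 had 0 reads in GFP+ cells at 3 months, so its fitted value there sets no bound, and 39 reads in GFP− cells made it at least 7.20-fold lower. Relative to globin, Alas2 had 4.45 reads per 1000 globin reads in GFP+ (exact interval 1.21 to 11.4) and 12.7 in GFP− thyroid cells (9.96 to 16.1). These intervals overlap and rest on 4 GFP+ reads.

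Salivary gland cells held almost no globin reads. Beta globin had 0, 0 and 12.6 CPM in the GFP+ libraries, against 118, 83.1 and 31.8 CPM in the GFP− libraries. Alpha globin had 0 CPM in all 3 GFP+ libraries, against 52.2, 0 and 10.6 CPM in the GFP− libraries, and Alas2 had 0 reads in all 6. In counts this was 1 globin read in GFP+ and 24 in GFP− cells, of 92013 and 301336 reads in genes. Per pooled read, GFP− cells had 7.33 times as many globin reads (exact interval 1.195 to 301.4). The comparison of fractions gave adjusted p = 0.644 for alpha and 0.602 for beta globin by edgeR, where 0% of 972 genes were called. At an unadjusted p under 0.05 there were 97 genes, and fits with DESeq2 size factors, with DESeq2 and without ribosomal RNA rows called 12, 0 and 5. A difference between salivary fractions was thus not detected.

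At 9 months, the age sampled in both glands, thyroid cells carried far more globin than salivary cells of the same fraction. Among GFP+ cells, beta globin had 325 reads in thyroid and 1 in salivary gland, a pooled ratio of 93.1 (exact interval 16.6 to 3687). Alpha globin had 59 reads in thyroid GFP+ cells and 0 in salivary GFP+ cells, so it was at least 5.63-fold higher. Among GFP− cells, thyroid exceeded salivary gland 65.4-fold for beta globin (41.2 to 111) and 26.2-fold for alpha globin (11.7 to 72.5). Alas2 was at least 5.23-fold higher in thyroid GFP− cells, with 14 reads there and 0 in salivary GFP− cells. The measured values of neither globin overlapped between glands in either fraction, and the share of all genes without overlap was not counted. The 0 counts of salivary GFP+ replicates 1 and 2 allow up to 3021 and 254 CPM, which reaches into the thyroid GFP+ range of beta globin (replicate 1) and of alpha globin (both). The tests gave beta globin 4.50 (SE 1.54, adjusted p = 0.0327 by edgeR) among GFP+ cells, with 9.57% of genes called higher, 5.04% lower and 14.6% in either direction. Among GFP− cells they gave beta globin 3.50 (SE 1.01, adjusted p = 0.00952) and alpha globin 2.84 (SE 0.887, adjusted p = 0.0183), with 9.67% of genes called higher, 4.32% lower and 14% in either direction. Alpha globin among GFP+ cells missed the threshold (adjusted p = 0.0964).

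These fitted values depended on scaling. TMM factors of the salivary GFP− libraries were 0.281 to 0.485 and those of the thyroid GFP− libraries 1.25 to 1.80. In the salivary GFP− libraries 10 acinar genes summed to 20920 to 105300 CPM. The cause of the difference in factors was not tested. With DESeq2 size factors, beta globin was 6.13 among GFP+ and 5.16 among GFP− cells, and alpha globin among GFP+ cells passed (adjusted p = 0.000969). The median of all genes moved with it, to 2.80 (GFP+) and 1.60 (GFP−), against 1.15 and 0.17 with TMM factors. The calls moved to 665 higher and 39 lower (GFP+) and to 466 and 32 (GFP−), against 93 and 49, and 94 and 42. Above the median of all genes, beta globin stood 3.35 (GFP+) and 3.33 (GFP−) higher with TMM factors, and 3.33 and 3.56 higher with DESeq2 size factors. The beta globin call among GFP+ cells was lost without thyroid GFP+ replicate 2 or 3, salivary GFP+ replicate 2 or 3, or salivary GFP− replicate 1 or 2 (4.27 to 8.77, adjusted p up to 0.139 by edgeR). Both calls among GFP− cells were lost without salivary GFP− replicate 2 or 3 (alpha 2.49 and 2.09, beta 3.45 and 3.02), and the alpha call also without thyroid GFP− replicate 2 or 3 (2.68 and 3.12). With no filter on low counts none of the 3 calls was kept (adjusted p of 0.186 to 0.326 by edgeR). The difference of the GFP effect between glands gave adjusted p = 0.86 for alpha and 0.922 for beta globin by edgeR, with 0% of genes called and 86 at an unadjusted p under 0.05.

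Most other genes of the red cell program were too scarce to test in thyroid. Of the other globins, only Cygb, a globin of fibroblasts and other non-blood cells, was tested, and it went the other way from the members: it had 207 reads in GFP+ and 45 in GFP− cells (log2 fold change 2.36, SE 0.429, adjusted p = 1.51e-06 by edgeR). The embryonic globins Hbb-bh1, Hbb-y and Hba-x had 0 thyroid reads, and 8 of 10 other globins found in the tables were at 0. Cygb kept its call in all 6 alternatives and without each of the 22 libraries (1.93 to 2.80).

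Of 12 other heme synthesis genes, 11 had thyroid reads and 1 was tested, Tmem14c, which moves porphyrin in mitochondria and was not called. It had 89 reads in GFP+ and 99 in GFP− cells. Fech, the ferrochelatase that closes heme synthesis, had 47 reads in GFP+ and 40 in GFP− cells, and Cpox had 45 reads in GFP+ and 31 in GFP− cells. Alas1, the form of most tissues, had 14 reads in GFP+ and 6 in GFP− cells. Summed over the 12 genes, the median library held 261 CPM in GFP+ and 223 CPM in GFP− cells. In pooled CPM these 4 genes stood at or above their GFP− level in GFP+ cells, whereas Alas2 stood below it.

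Of 16 genes of the red cell membrane, 9 had thyroid reads, 2 were tested and 0 were called. The defining genes Slc4a1 (band 3) and Rhag were at 0. Aqp1, a water channel of red cells and of endothelium, had 163 reads in GFP+ and 176 in GFP− cells. Of 9 erythroid transcription factor genes none was tested, and Gata1, Klf1, Nfe2 and Gfi1b had 0 thyroid reads. Tal1 had 2 reads in GFP+ and 12 in GFP− cells, 11 of these 12 at 3 months and 0 at 6 months. Lmo2 had 27 reads in GFP+ and 43 in GFP− cells, and Zfpm1 4 in GFP+ and 7 in GFP− cells. Bcl11a (10 in GFP+ and 7 in GFP− cells) and Ldb1 (7 in GFP+ and 5 in GFP− cells) went the other way.

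Among 17 genes of late red cells, 3 were tested. Tent5c, a poly(A) polymerase gene that is high in late red cell precursors, fell in GFP+ cells (35.2 CPM in GFP+ and 88.8 CPM in GFP− cells pooled, log2 fold change −1.46, SE 0.518, adjusted p = 0.0277 by edgeR). Its call held in only 1 of 6 alternatives (adjusted p up to 0.55 by edgeR or DESeq2). It was lost without any 1 of 7 libraries, GFP− replicates 1 (3 months), 3 (6 months) and 2 (9 months) and GFP+ replicates 4 (3 months), 1 and 3 (6 months) and 1 (9 months), with values of −1.53 to −1.09. Gpx1 and Prdx2, both peroxide-removing enzymes of red cells and many other cells, were not called, with pooled values of 155 CPM (Gpx1) and 94.3 CPM (Prdx2) in GFP+ cells, against 139 and 92.9 CPM in GFP− cells. Bpgm, which makes 2,3-bisphosphoglycerate, had 20 reads in GFP+ and 43 in GFP− cells, and Car2, a carbonic anhydrase, 11 in GFP+ and 53 in GFP− cells. Of the iron and heme breakdown genes, Hmox1 (heme oxygenase) rose in GFP+ cells (159 CPM in GFP+ and 54.5 CPM in GFP− cells pooled, 1.14, SE 0.422, adjusted p = 0.0359 by edgeR), a call kept in 2 of 6 alternatives. It was lost without any 1 of 10 libraries, GFP− replicates 4 (3 months), 1 and 4 (6 months), 1 and 2 (9 months) and GFP+ replicates 4 (3 months), 2 and 3 (6 months), 2 and 3 (9 months), with values of 0.52 (without GFP+ replicate 4 at 3 months) to 1.12. Fth1 (ferritin heavy chain) was not called.

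**Figure D4:**
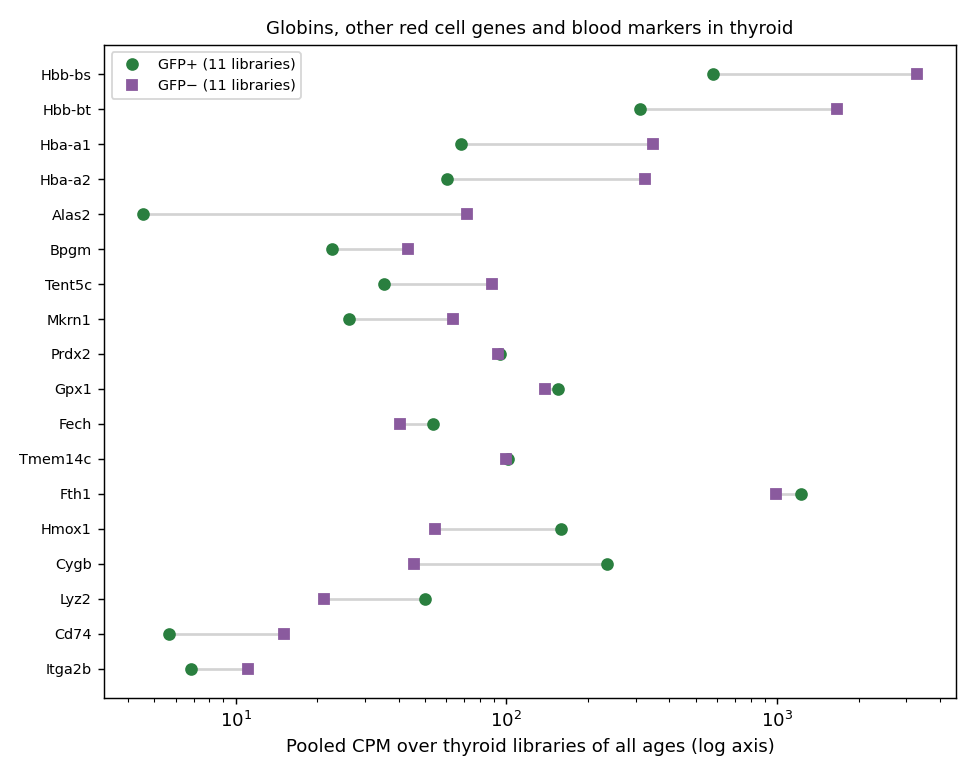
Pooled CPM in GFP+ (green circles) and GFP− (purple squares) thyroid cells of all ages, on a log axis, for the members and for other red cell, heme, iron and blood genes with reads. All 4 globins and Alas2 are lower in GFP+ cells, while Prdx2, Tmem14c and Gpx1 lie close together and Cygb and Hmox1 are higher in GFP+ cells. Lyz2 is also to the right in GFP+ cells, from 3-month reads alone.

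Markers of other blood cells were near 0. Of 16 leukocyte genes 10 had 0 thyroid reads, among them the defining genes Ptprc, Cd3e and Cd79a, and the list held 50 reads in GFP+ and 44 in GFP− cells, of which Lyz2 made up 44 in GFP+ and 21 in GFP− cells. All 44 GFP+ reads of Lyz2 came from the 3-month group, and it had 0 in GFP+ cells at 6 and 9 months. Of 8 platelet genes 6 had 0 thyroid reads, including Pf4 and Ppbp. Neither list had a tested member, and their summed level per library ran from 0 to 263 CPM (leukocyte, GFP+) and 0 to 218 CPM (leukocyte, GFP−). The part of other blood cells in the globin difference was not tested.

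Markers of vessels and of resident cells moved between the same fractions. Over the mean of the ages, where 8.69% of all genes were called lower and 11.4% higher, 10 of 11 endothelial genes tested fell in GFP+ cells (median log2 fold change −2.37), among them Kdr and Esm1, and all 14 had reads. The list summed to 0 to 3201 CPM in GFP+ and 2138 to 9551 CPM in GFP− libraries. All 3 C cell genes tested (of 5) and 3 of 5 thyrocyte genes tested (of 12) also fell, among them Calca (calcitonin) and Tg (thyroglobulin), while 11 of 11 fibroblast genes rose (median 2.02). Ret, a C cell gene too scarce to test, went the other way, with 27 reads in GFP+ and 7 in GFP− cells. At single ages the counts were smaller for some lists: at 3, 6 and 9 months 9, 5 and 8 endothelial genes and 0, 0 and 4 thyrocyte genes were called lower, and 8, 7 and 0 fibroblast genes higher. Summed levels were 678 to 21160 CPM in GFP+ and 2039 to 27870 CPM in GFP− libraries for C cell genes, and 0 to 22560 CPM in GFP+ and 1216 to 10900 CPM in GFP− libraries for fibroblast genes. The C cell sum was mostly Chga, with 6617 of 6753 reads in GFP+ and 12731 of 15322 in GFP− cells. The part of any of these in the globin difference was not tested.

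The 8 genes whose log2 CPM over the 22 thyroid libraries ran most like that of summed globin were Itm2c (Pearson r = 0.88), Npnt (0.87), S100a1 (0.86), Ppp1r15a (0.84), Zfp644 (0.83), Hspb1 (0.83), Rps25 (0.82) and Cxcl13 (0.82). The points share their libraries, and shallow libraries put 0 counts of all genes at similar values, so these are descriptions. Over the 17 libraries with at least 10000 reads, r was 0.88 for S100a1, 0.81 for Zfp644, 0.75 for Itm2c, 0.75 for Npnt, 0.69 for Ppp1r15a, 0.67 for Cxcl13, 0.65 for Hspb1 and 0.64 for Rps25. None of the 8 belongs to the lists of red cell genes, but only the 1898 genes tested in thyroid were ranked. These held 1 heme synthesis, 2 red cell membrane, 0 erythroid transcription factor and 3 late red cell genes, and not Alas2. Their absence from the 8 therefore says little about red cell genes. S100a1, a calcium-binding protein gene known from heart muscle, had the highest r over the 17 libraries. Pooled, it had 54.7, 185 and 80.9 CPM in GFP+ cells at 3, 6 and 9 months and 215, 432 and 227 CPM in GFP− cells.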

How the data were processed

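Polyadenylated RNA of sorted cells was made into libraries with a 3′ mRNA kit, per the labels' protocols. Values were whole-number read counts per gene, 1 table per library, as deposited by the authors. The submitters' processing notes name bcl2fastq and the build mm9, and the aligner and counting program are not given in the sources used here. The tables listed 47643 genes, and 5 rows of summary reads in each were left out (reads outside genes were 13.3 to 85.8% of all reads). Of the identifiers, 47224 matched symbols and 419 did not. None of the 36 pairs of libraries within groups was identical. Promoter sequences came from RefSeq (GRCm38.p6) and transcripts from GENCODE vM21, matched by symbol for all 5 members, so coordinates are not those of the build named in the notes.

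Hba-a1 with Hba-a2, and Hbb-bs with Hbb-bt, were summed. Tests used edgeR 4.0.16 (R 4.3.3): TMM factors (0.582 to 10.5 in thyroid), filterByExpr and robust quasi-likelihood fits, with p adjusted by Benjamini-Hochberg over all genes and a threshold of 0.05. All 22 thyroid libraries entered 1 fit of 6 groups (1898 genes) and the 12 libraries at 9 months another of 4 groups (972 genes). Means and SDs of CPM use plain read totals. Each log2 fold change is GFP+ over GFP− or thyroid over salivary gland. Where a group had 0 reads, bounds use 3 reads over the group. Intervals are Clopper-Pearson 95% intervals for shares, and ratios of pooled reads use the same exact method. They cover counting error only. The other settings tried were DESeq2 1.42.0, edgeR with DESeq2's size factors, no filter, a stricter filter, a replicate block, single copies, no ribosomal RNA rows, no libraries under 10000 reads, and leaving out each library. The labels do not state that a replicate number marks an animal, so numbers were not used as pairs in the main fits. Same-numbered libraries of the fractions correlated above 0.1 in 3 of 11 thyroid pairs and 2 of 3 salivary pairs, which does not settle whether they are pairs. The fits were tested on simulated data. Genes named beside the members are mostly abundant, called or defining members of 13 lists, and the 8 genes most like summed globin. The choice followed no strict rule. Bpgm, Car2 and Alas1 were named without a call, while the more abundant Cat and Fbxo7 (late red cell) and Urod (heme synthesis) were left out. The members and lists were chosen with earlier results of these data known. Some members of these lists are not reported here.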

Additional observations from a re-analysis of the deposited data

Results flagged for a closer look

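Alpha globin, beta globin and Alas2 were each examined in the 4 groups of 4 libraries. In 4 of these 12 sets 1 library stood apart, by a gap to its neighbour above 0.829 of the group's range. For continuous values chance flags about 1 in 20 groups, but a set with reads in a single library is always flagged. The flags in GFP+ cells below are all of this kind, so that rate does not apply to them. A set with no reads, as for Alas2 in GFP+ thyroid cells at 3 months, cannot be flagged. The 3 measures share their libraries, so the sets are not independent. Alpha globin in GFP− thyroid cells at 6 months was 1727 CPM in replicate 3, where the others had 369 to 502 CPM. In GFP+ thyroid cells at 3 months, replicate 4 was the only library with globin reads, with 22.9 CPM of alpha and 200 CPM of beta globin, and it was also far deeper than the others. In GFP+ thyroid cells at 6 months, replicate 3 was the only library with Alas2 reads (10.2 CPM, from 2 reads).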

How the results depend on the processing

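Of the results for summed globins and the alpha share, 174 of 200 alternative values other than leaving out 1 library kept their direction and their side of the threshold, as did 402 of 420 values without 1 library. Many of these results did not pass in the main fits, and a result that passed in neither setting counts as kept. These counts therefore overstate how well the calls held. Calls were lost in 22 of the 200 and 15 of the 420 values, all of them at single ages or between glands. Over the mean of the ages both globin calls held under every alternative run, with −4.01 to −2.48 (alpha) and −4.86 to −2.60 (beta) without 1 library. The single-age and between-gland calls rest on few reads: the cause of each lost call was not tested, and the number of genes tested differs between filters.

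With DESeq2 size factors the 3-month values were −3.56 (alpha) and −3.08 (beta), neither past the threshold, and alpha globin between glands in GFP+ cells passed at 6.94. DESeq2 gave −2.93 for alpha at 3 months, not past the threshold, 3.91 for alpha between glands in GFP+ cells, past it, and a reversed sign, −0.75, for the alpha interaction of gland and fraction, which passed in neither. With no filter the values −4.06 and −3.91 (alpha and beta at 3 months), −2.88 and −2.93 (6 months), 5.68 (beta between glands, GFP+), 3.22 and 4.24 (alpha and beta, GFP−) all missed the threshold. Without libraries under 10000 reads so did −3.84 and −3.25 (3 months) and −2.96 and −2.81 (6 months). Counted singly, Hba-a2 passed for age in GFP+ cells (adjusted p = 0.0315 by edgeR) and Hbb-bs between glands in GFP+ cells did not (3.8).

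Replicate numbers are shared by the groups without a stated pairing, and same-numbered thyroid libraries correlated at −0.09 to 0.35. With the replicate number as a block, −3.58 and −4.14 (alpha and beta at 3 months), −3.13 and −3.26 (6 months), 4.47 (beta between glands, GFP+), 2.92 and 3.26 (alpha and beta, GFP−) missed the threshold. The block took the genes called to 186 over the mean of the ages, against 381 without it.

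Without 1 library each, alpha and beta ran from −3.80 to −1.88 and −3.60 to −2.21 at 6 months, from 2.09 to 4.29 and 3.02 to 4.44 between glands in GFP− cells, and beta from 4.27 to 8.77 in GFP+ cells. The adjusted p of beta over age ran from 0.00402 to 0.327 (GFP+) and from 0.0292 to 0.605 (GFP−) by edgeR.

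Over all genes, calls moved by more than 1.5 times in these cases. At the mean of the ages there were 381 calls, and 65 (stricter filter) and 186 (block). At 3 months there were 182, and 22 (no filter), 41 (stricter filter) and 44 (block). At 6 months there were 133, and 44 (DESeq2), 10 (no filter), 24 (stricter filter), 11 (block) and 233 (deeper libraries, those of at least 10000 reads). At 9 months there were 37, and 13, 4, 5 and 5 under the first 4 of these. For age there were 29 in each fraction. GFP+ had 2 (DESeq2), 56 (no filter), 7 (stricter filter) and 19 (block), and GFP− had 63 (size factors), 2 (DESeq2), 5 (no filter), 11 (stricter filter), 2 (block), 117 (deeper libraries) and 16 (no ribosomal RNA). The age interaction had 3, and 8 (size factors), 0 (DESeq2), 2 (no filter or stricter filter) and 20 (deeper libraries). Between glands GFP+ had 142, and 704 (size factors), 561 (DESeq2), 31 (no filter) and 22 (stricter filter). GFP− had 136, and 498, 361, 49 and 23 under the same, 70 (block) and 206 (deeper libraries). The salivary fractions had 0, and 12 (size factors), 5 (no ribosomal RNA) and 2 (deeper libraries), and the gland interaction 0, and 1 (deeper libraries).

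Depth limits Alas2 and the salivary values: Alas2 had 75 reads in all and salivary cells had 1 (GFP+) and 24 (GFP−) globin reads.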
